A study of Mus musculus with 4 samples.

Results

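The vacuolar proton pump (V-ATPase) and the proteins of the lysosome membrane were followed in mouse lung as 32 genes of the 17780 in the expression table. They were chosen by function, by a rule that uses no measured value but with earlier results of the data known, and matched by gene symbol. Of these, 16 encode subunits or accessory proteins of the pump, and the other 16 encode coat proteins, transporters, channels and an enzyme of the lysosome membrane. Each symbol was listed once. Levels are in FPKM, which counts fragments per kilobase of a transcript relative to the depth of the library, and all 32 genes reached the 1 FPKM with vehicle that was taken as detected.

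Lung RNA came from 4 groups of male C57BL/6J mice, bought at 6 to 7 weeks of age, with 1 library per group. Controls took vehicle, 0.5% carboxymethylcellulose, by mouth. A further group took amiodarone, an antiarrhythmic drug, at 300 mg per kg, another dabigatran etexilate, an inhibitor of thrombin, at 60 mg per kg, and the last both drugs, each 5 times per week. The labels give 28 days of treatment, while the study's methods put tissue collection at day 26. The number of mice behind each library is not given in the sources used here. The study asked whether dabigatran counters the lung response to amiodarone. With 1 library per group there was no test across animals, and no p-value is given. Each ratio carries a 95% interval (exact Clopper-Pearson) from the reads of the libraries compared, which measures counting error between those libraries and says nothing of the spread between mice. Sequenced fragments are not independent molecules, so the true counting error can be wider.

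The V-ATPase is a rotary motor that uses ATP to pump protons into lysosomes and other organelles. Its V1 sector splits ATP in the cytosol, and its V0 sector carries protons through the membrane. The acid interior lets hydrolases digest lipid and protein, and the gradient powers many of the transporters that carry amino acids, cystine and sugars out of the lysosome. Amiodarone is a cationic amphiphilic drug of the kind that gathers in acid organelles and is known to cause phospholipid storage in lung macrophages. Many genes of lysosome proteins carry the CLEAR element, a motif around the letters TCACGTG to which TFEB-family transcription factors bind.

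RefSeq promoter windows of GRCm38.p6, from 250 bases before to 50 bases after the annotated start of a transcript, were found for 26 of the 32 genes. They numbered 33, since 5 genes had windows at several starts, and a gene counted as holding letters if any of its windows did. The letters CACGTG were searched, which read the same on both strands, as were TCACGTG and its reverse complement CACGTGA, which contain them. TCACGTG or CACGTGA stood in the windows of 8 of the 26 genes (30.8%), against 4.29% of all 27025 genes with a window and 6.81% of the 10495 of these that were detected. Counted by window, the letters stood in 8 of 33 (24.2%), against 3.77% of all 32851 windows. The 8 genes were 4 of 12 pump genes and 4 of 14 membrane genes, and the same 8 held CACGTG, which stood in 8.09% of all genes and 11.4% of detected genes. A longer form of the motif was searched too, in which gt stands directly before CACGTG and ac directly after it. This longer form stood in 1 of the 26 genes (3.85%), against 0.370% of all genes and 0.743% of detected genes. It was held by 0 of 12 pump genes and 1 of 14 membrane genes, so the 8 genes above mostly held the shorter letters only. The letters were chosen as a motif known from genes of lysosome proteins, so a higher share in these genes could be foreseen. A match describes the letters in this window and says nothing of whether a factor binds there. For 3 of the genes with several copies, the 250 bases before the start are shown 5′ to 3′ with CACGTG in capitals, since they differ in the number and spacing of the copies.
Lamp1 (chr8:13158911-13159160, plus strand): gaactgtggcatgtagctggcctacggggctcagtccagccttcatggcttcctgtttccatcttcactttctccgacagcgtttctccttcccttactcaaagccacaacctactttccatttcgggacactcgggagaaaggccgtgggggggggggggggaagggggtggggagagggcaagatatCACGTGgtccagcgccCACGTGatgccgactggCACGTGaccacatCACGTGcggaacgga
Mcoln1 (chr8:3500269-3500518, plus strand): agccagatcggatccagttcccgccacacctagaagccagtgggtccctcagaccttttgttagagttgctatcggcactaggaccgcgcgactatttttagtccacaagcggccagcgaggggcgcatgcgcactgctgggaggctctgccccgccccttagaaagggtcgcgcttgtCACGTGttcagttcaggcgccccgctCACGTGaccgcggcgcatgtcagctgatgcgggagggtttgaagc
Atp6v0b (chr4:117887330-117887579, minus strand): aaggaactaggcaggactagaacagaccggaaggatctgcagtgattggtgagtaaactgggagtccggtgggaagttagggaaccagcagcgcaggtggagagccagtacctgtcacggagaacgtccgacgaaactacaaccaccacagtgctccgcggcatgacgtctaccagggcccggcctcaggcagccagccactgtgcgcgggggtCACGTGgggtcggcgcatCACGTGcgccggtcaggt
The Lamp1 promoter held 4 copies, that of Mcoln1 2 copies and that of Atp6v0b 2 copies. For the other 5 genes, 30 bases around the copy nearest to the start are given, so that the flanking letters can be compared.
Atp6v0d1 (chr8:105566050-105566079, minus strand): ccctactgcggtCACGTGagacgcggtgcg
Atp6v0e (chr17:26676387-26676416, plus strand): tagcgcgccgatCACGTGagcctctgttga
Atp6v1a (chr16:44139373-44139402, minus strand): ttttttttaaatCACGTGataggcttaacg
Clcn7 (chr17:25133386-25133415, plus strand): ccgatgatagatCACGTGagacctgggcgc
Cln3 (chr7:126583340-126583369, minus strand): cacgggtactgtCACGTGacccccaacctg
In all 5 windows the capitals are preceded by t and followed by a. The windows of Atp6v1a and Cln3 belong to starts 443 and 2581 bases inside the gene from its outermost 5′ end, and the window at the outermost start of Cln3 held no CACGTG. For the other 6 genes the start was at most 13 bases from that end. In the comparison of amiodarone with vehicle described next, the 8 genes with TCACGTG or CACGTGA had a median ratio of 1.16 (range 1.09 to 1.32), and the 18 genes with a window but without these letters had a median of 1.19 (0.820 to 1.56). For the combination against dabigatran alone the order was the other way round, with medians of 1.19 and 1.11, and neither difference has a test here.

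The pump genes were expressed over a range of levels that differed by subunit. In the vehicle library the highest was Atp6v0c, the proteolipid whose copies form the turning ring of V0, at 247 FPKM, and the lowest was Atp6v1h, a regulatory V1 subunit, at 21.6 FPKM. Atp6v1a and Atp6v1b2, which together form the ATP-splitting head, had 31.0 and 55.3 FPKM. Among membrane genes the coat glycoprotein Lamp1 was highest at 339 FPKM, followed by Laptm4a at 310.3 FPKM. The transporters and channels were lower, from 2.35 FPKM for the arginine sensor Slc38a9 to 22.6 FPKM for the cholesterol exporter Npc1. Together the 32 genes took 0.442% of all reads after vehicle, 0.537% after amiodarone, 0.448% after dabigatran and 0.526% after both drugs, so the libraries with amiodarone gave the higher shares.

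**Figure D1:**
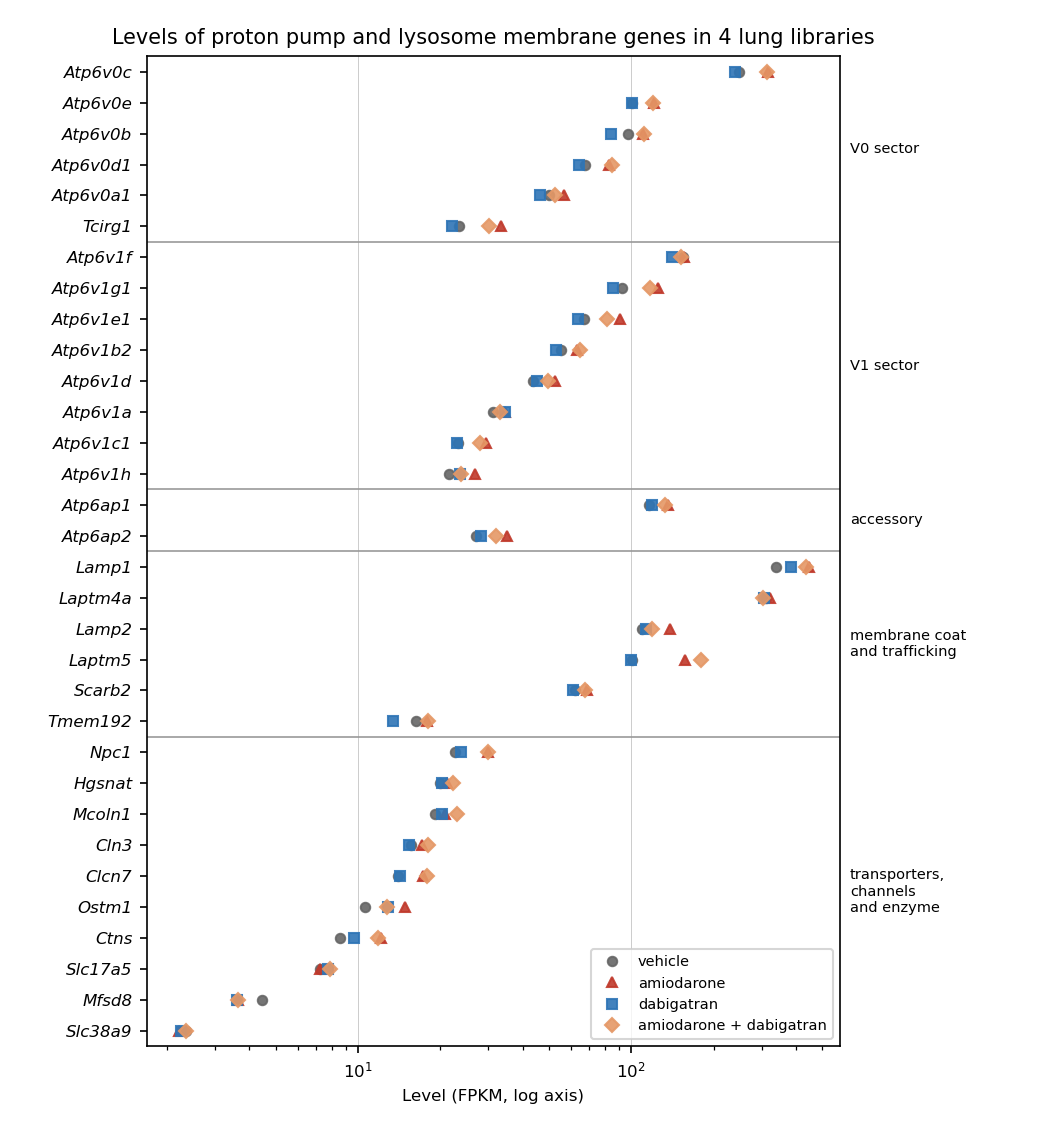
Level in FPKM on a log axis of the 32 genes in the 4 lung libraries, 1 point per library, with genes grouped by role and ordered by their vehicle level. The points of a gene lie close together compared with the span between genes, from 2.35 FPKM for Slc38a9 to 339 FPKM for Lamp1 with vehicle.

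Amiodarone was compared with vehicle to see how the pump stood in the treated lung. All 16 pump genes were higher with amiodarone, by a median of 21.2%, while over all 13195 detected genes 40.1% were higher and the median change was -3.86%. The interval of the ratio lay above 1 for 15 of the 16 pump genes and below 1 for none, against 18.9% above and 30.6% below among all detected genes. At least 25% higher were 6 pump genes (10.1% of detected genes), and none was at least 20% lower (18.8% of detected genes). The summed level of the 16 genes was 1219 FPKM with vehicle and 1470 FPKM with amiodarone. Lung is a mixture of cells, and more cells of a type cannot be told apart from more RNA per cell in these data. Summed markers of macrophages (114 FPKM with vehicle and 247 FPKM with amiodarone) and neutrophils (91.2 and 596 FPKM) were higher in the same library. The macrophage markers were uneven, with ratios from 1.05 for Csf1r to 11.2 for Gpnmb, and Cd68 among them is itself a lysosome membrane protein. The part of these cells in the pump values was not tested.

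In the V0 sector all 6 genes had intervals above 1. Tcirg1, on chromosome 19 from 3896050 to 3907133 of GRCm38.p6, encodes the a3 subunit known from lysosomes and from the acid-secreting border of osteoclasts. It had 23.3 FPKM after vehicle, 33.4 after amiodarone, 22.0 after dabigatran and 30.1 after both drugs. The values with amiodarone were above both others, and the ratio to vehicle was 1.43 (95% interval 1.32 to 1.55), the highest of the pump genes. Atp6v0c had 247 FPKM after vehicle, 317 after amiodarone, 240.2 after dabigatran and 313 after both drugs, with a ratio of 1.28 (1.23 to 1.33). Its values fell into a lower pair without amiodarone and a higher pair with it. Atp6v0d1, which joins V0 to the central stalk, had 67.7 FPKM after vehicle, 82.8 after amiodarone, 64.3 after dabigatran and 85.0 after both drugs, and Atp6v0e, a small membrane subunit, had 101, 121, 100.2 and 120.5 FPKM in the same order. Both showed that grouping too, with ratios to vehicle of 1.22 (1.15 to 1.30) and 1.2 (1.11 to 1.29). The ratios of Atp6v0a1, the a1 subunit, and Atp6v0b, a second proteolipid, were lower, at 1.14 (1.09 to 1.19) and 1.13 (1.06 to 1.21). Atp6v0a1, the most abundant gene of the a subunits, had 49.97, 56.8, 46.3 and 52.5 FPKM in the order above, a narrow span in which both values with amiodarone were still the higher ones.

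In the V1 sector 7 of 8 genes had intervals above 1. The peripheral stalks that hold the motor still are built of E and G subunits, and their genes had the highest ratios of the sector. Atp6v1g1, on chromosome 4 from 63544765 to 63550701, had 92.8 FPKM after vehicle, 125 after amiodarone, 85.7 after dabigatran and 117 after both drugs, a ratio of 1.35 (1.27 to 1.44). Atp6v1e1 had 67.1 FPKM after vehicle, 90.6 after amiodarone, 64.0 after dabigatran and 81.4 after both drugs, a ratio of 1.35 (1.26 to 1.45). In both genes each library with amiodarone was above each library without it. Atp6v1c1, which links the stalks to V0, had 23.2, 29.3, 23.1 and 28.1 FPKM in that order and a ratio of 1.27. The genes of the catalytic head and rotor had smaller ratios, 1.11 for Atp6v1a, 1.15 for Atp6v1b2, 1.2 for Atp6v1d and 1.01 (0.938 to 1.08) for Atp6v1f, the single pump gene whose interval included 1. Atp6v1h, with a ratio of 1.24, is taken up again with the combination. In the order vehicle, amiodarone, dabigatran and both drugs, Atp6v1b2 had 55.3, 63.4, 52.8 and 64.7 FPKM and Atp6v1d, of the central rotor, 43.7, 52.5, 45.1 and 49.7 FPKM. Both separated the libraries with amiodarone from those without it. Atp6v1f, also of the rotor, had 155, 156, 141 and 151 FPKM, and there the vehicle value lay between the values with amiodarone.

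Both accessory genes were higher with amiodarone. Atp6ap1, whose product helps to assemble V0, had 116 FPKM after vehicle, 136 after amiodarone, 119 after dabigatran and 133 after both drugs, a ratio of 1.18 (1.13 to 1.22). Atp6ap2, also known as the (pro)renin receptor, had 27.0 FPKM after vehicle, 35.2 after amiodarone, 28.2 after dabigatran and 31.98 after both drugs, a ratio of 1.30. In both genes the order of the libraries was the same, with amiodarone highest, then both drugs, dabigatran and vehicle.

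Among the 16 membrane genes 13 were higher and 3 lower with amiodarone, with a median change of 10.7%. The interval lay above 1 for 9 genes and below 1 for 1 (18.9% and 30.6% of detected genes), and 6 genes were at least 25% higher (10.1% of detected genes), as many as in the pump. The median ratio was 1.21 for the pump and 1.11 for the membrane genes, a difference that has no test here. Without Mfsd8 and Slc38a9, the membrane genes under 5 FPKM with vehicle, the median log2 ratio of the membrane genes was 0.23 in place of 0.15, nearer to the 0.28 of the pump. Laptm5, a lysosome membrane protein of blood-derived cells, had 101 FPKM after vehicle, 157 after amiodarone, 99.9 after dabigatran and 181 after both drugs. With a ratio of 1.56 (1.5 to 1.62) it was the only gene of the 32 at least 1.5-fold higher, as were 4.48% of detected genes. The coat glycoproteins Lamp1 and Lamp2 had ratios of 1.32 (1.29 to 1.35) and 1.27 (1.23 to 1.32). Lamp1, on chromosome 8 from 13159161 to 13175338, had 339 FPKM after vehicle, 445 after amiodarone, 384 after dabigatran and 435 after both drugs, and vehicle was the lowest of the 4 values. Scarb2, which carries glucocerebrosidase to the lysosome, had a ratio of 1.11, Tmem192 1.1 (0.943 to 1.29) and Laptm4a 1.04 (1.01 to 1.06). Scarb2 had 62.0, 68.9, 61.3 and 67.4 FPKM in the order vehicle, amiodarone, dabigatran and both drugs, and both values with amiodarone were higher than the others. Tmem192 had 16.2, 17.9, 13.4 and 18.0 FPKM, with dabigatran alone lowest. Laptm4a, abundant in every library, had 310.3, 321, 307 and 305 FPKM, and its lowest value was with both drugs.

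The transporters and channels split by gene. Ctns, the cystine exporter whose loss causes cystinosis, had 8.58 FPKM after vehicle, 12.1 after amiodarone, 9.62 after dabigatran and 11.8 after both drugs, a ratio of 1.41 (1.24 to 1.61). Ostm1, the partner of the chloride-proton exchanger Clcn7, had 10.6 FPKM after vehicle, 14.9 after amiodarone, 12.8 after dabigatran and 12.8 after both drugs, a ratio of 1.4 (1.26 to 1.56), with the amiodarone library alone at the top. Npc1 had 22.6 FPKM after vehicle, 29.9 after amiodarone, 23.9 after dabigatran and 29.8 after both drugs, a ratio of 1.32, and Clcn7 itself had a ratio of 1.23 (1.13 to 1.34). For the calcium channel Mcoln1, for Cln3 and for the acetyltransferase Hgsnat, which takes part in heparan sulfate breakdown, the ratios were 1.09, 1.1 and 1.07, with intervals that included 1. In the order vehicle, amiodarone, dabigatran and both drugs, Mcoln1 had 19.1, 20.8, 20.3 and 23.0 FPKM, Cln3 15.7, 17.2, 15.3 and 17.9 FPKM and Hgsnat 19.9, 21.2, 20.3 and 22.2 FPKM. In these 3 genes the highest value was with both drugs. Clcn7 had 13.97, 17.2, 14.2 and 17.8 FPKM in that order, also highest with both drugs. The sialic acid exporter Slc17a5 had 7.27, 7.26, 7.77 and 7.86 FPKM in the same order, a ratio of 0.999 (0.870 to 1.15). Slc38a9, at 2.35, 2.2, 2.24 and 2.35 FPKM in that order, had a ratio of 0.936 (0.805 to 1.09). Mfsd8 had 4.44 FPKM after vehicle, 3.64 after amiodarone, 3.59 after dabigatran and 3.63 after both drugs. Its ratio of 0.820 (0.674 to 0.997) was the lowest of the 32 and the only one with an interval below 1, and vehicle stood above the other 3 libraries.

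**Figure D2:**
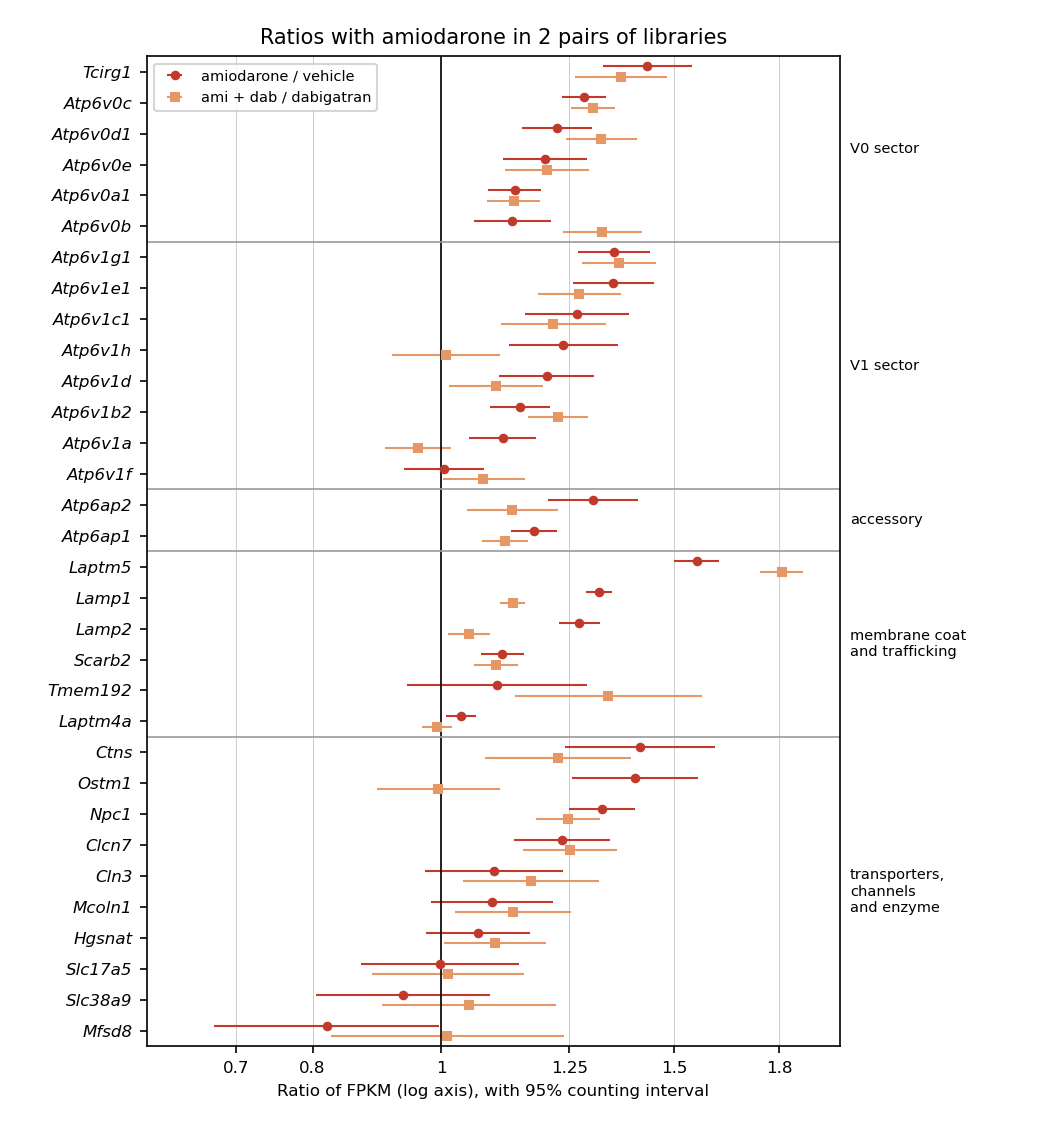
Ratio of FPKM on a log axis for amiodarone against vehicle (circles) and both drugs against dabigatran (squares), with 95% counting intervals as bars, for the 32 genes by role. All 16 circles of the pump lie above 1, and Laptm5 lies farthest to the right in both pairs, at 1.56 and 1.81.

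The combination was set against dabigatran alone to look at amiodarone again, in libraries that the first comparison did not use. Of the 16 pump genes 15 were higher there, against 46.9% of detected genes, with a median change of 20.8% (-1.03% over detected genes). The interval lay above 1 for 14 pump genes and below 1 for none, against 19.1% and 23.6% of detected genes. At least 25% higher were 6 pump genes (9.34% of detected genes), Tcirg1, Atp6v0b, Atp6v0c, Atp6v0d1, Atp6v1e1 and Atp6v1g1, and none was at least 20% lower (12.0%). Of the membrane genes 14 of 16 were higher, with a median change of 11.6%. Their interval lay above 1 for 11 genes and below 1 for none, 3 were at least 25% higher, Tmem192, Laptm5 and Clcn7, and Laptm5 alone was at least 1.5-fold higher (3.80% of detected genes), at a ratio of 1.81 (1.74 to 1.88). Tmem192 had a ratio of 1.34 (1.14 to 1.57), and the largest in the pump were those of Tcirg1, 1.37 (1.26 to 1.48), and Atp6v1g1, 1.36 (1.28 to 1.45). Summed macrophage markers were 120.2 FPKM with dabigatran and 273 FPKM with both drugs, and neutrophil markers 68.1 and 431 FPKM, and their part was not tested.

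Both pairs put together gave 15 pump genes and 11 membrane genes higher in each, where 25.8% of detected genes were. The intervals were above 1 in both pairs for 13 pump and 7 membrane genes (9.98% of detected genes). At least 25% higher in both were 4 pump genes, Tcirg1, Atp6v0c, Atp6v1e1 and Atp6v1g1, and 1 membrane gene, Laptm5 (5.01% of detected genes). For 14 pump genes and 11 membrane genes, both libraries with amiodarone were above both libraries without it, a pattern found in 21.3% of detected genes. This pattern asks for no margin beyond counting error. It includes Atp6v1h, whose ratio of the combination to dabigatran was 1.01 (0.918 to 1.11). The opposite pattern, found in 4222 of 13195 detected genes, occurred in none of the 32. The 2 pump genes without separation were Atp6v1f and Atp6v1a, and the 5 membrane genes were Laptm4a, Ostm1, Slc17a5, Mfsd8 and Slc38a9. Across the 32 genes the log2 ratios of the 2 pairs correlated at r = 0.580 (Pearson) and rho = 0.511 (Spearman), against 0.599 and 0.457 across 13188 detected genes. Genes of 1 library share its depth and cell mixture, so these values are descriptions.

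Some genes differed between the pairs. The intervals of the 2 ratios did not overlap for 7 of the 32 genes (21.9%), close to the 20.9% of detected genes. Lower with dabigatran than without it were the amiodarone ratios of Lamp1, 1.13 (1.11 to 1.16), and Lamp2, 1.05 (1.01 to 1.09). Lamp2 had 109 FPKM after vehicle, 139 after amiodarone, 113 after dabigatran and 119 after both drugs, so the amiodarone library stood apart from the other 3. Atp6v1a had 31.0 FPKM after vehicle, 34.5 after amiodarone, 34.4 after dabigatran and 33.0 after both drugs, and the ratio of the combination to dabigatran was 0.961 (0.908 to 1.02). Atp6v1h had 21.6, 26.7, 23.5 and 23.7 FPKM in that order, and its ratio was 1.01 (0.918 to 1.11). For Ostm1 it was 0.995 (0.895 to 1.11). Higher with dabigatran were the ratios of Laptm5, given above, and of Atp6v0b, at 1.32 (1.24 to 1.42). Atp6v0b had 97.3 FPKM after vehicle, 110.2 after amiodarone, 84.1 after dabigatran and 111 after both drugs, and dabigatran alone was the lowest of the 4.

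Several pump subunits are encoded by paralogous genes with their own tissues, and the paralogs outside the 32 genes differed in direction. Atp6v0d2, the d2 subunit known from osteoclasts and macrophages, had 7.44 FPKM after vehicle, 36.5 after amiodarone, 8.43 after dabigatran and 40.1 after both drugs. Its ratios were 4.90 (95% interval 4.35 to 5.54) for amiodarone to vehicle and 4.76 (4.25 to 5.33) for the combination to dabigatran, larger than those of any of the 32 genes. Its share of the summed FPKM of both d genes was 9.90% after vehicle, 30.6% after amiodarone, 11.6% after dabigatran and 32.1% after both drugs. Tcirg1 made up 26.6%, 31.7%, 26.4% and 30.5% of the a subunit genes in the same order, and Atp6v0a1 57.0%, 53.9%, 55.5% and 53.2%. Atp6v0a2, found in the Golgi and endosomes, had 12.7, 13.0, 13.3 and 13.7 FPKM in the same order.

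Atp6v1b1 and Atp6v1c2 were lower in both libraries with amiodarone than in both without it. Atp6v1b1, the B1 subunit of kidney intercalated cells, had 5.92 FPKM after vehicle, 3.88 after amiodarone, 7.01 after dabigatran and 2.85 after both drugs, with ratios of 0.655 (0.522 to 0.820) to vehicle and 0.407 (0.319 to 0.516) for the combination to dabigatran. Atp6v1c2, the C2 subunit of kidney and lung epithelium, had 43.0 FPKM after vehicle, 30.6 after amiodarone, 38.7 after dabigatran and 32.5 after both drugs, with ratios of 0.712 (0.652 to 0.778) and 0.840 (0.769 to 0.918). It was the larger of the C genes in every library, at 65.0% of their sum with vehicle and 51.1% with amiodarone. Atp6v0a4, the a4 subunit of kidney intercalated cells, had 1.70, 2.28, 1.86 and 2.52 FPKM, higher in both libraries with amiodarone. There was little span in Atp6v1g2, a G subunit known from neurons, with 4.0, 4.03, 3.5 and 3.74 FPKM, and in Atp6v0e2, with 18.4, 18.2, 18.5 and 18.1 FPKM. Atp6v1g3 was under 1 FPKM in all 4 libraries, and Atp6v1e2, also looked for, had no value under that symbol.

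**Figure D3:**
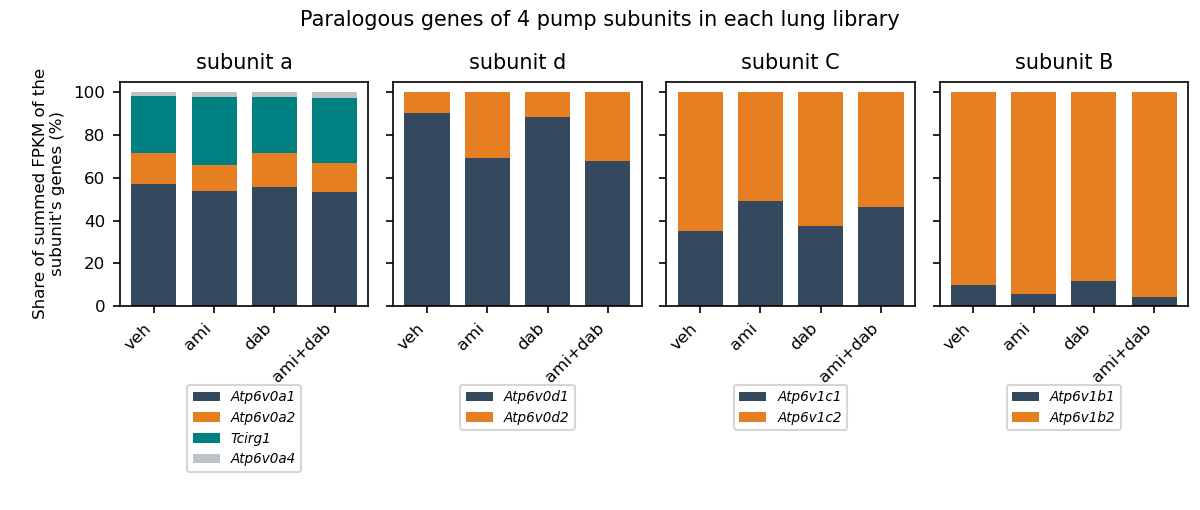
Share in percent of the summed FPKM of a subunit's paralogous genes, as stacked bars for vehicle (veh), amiodarone (ami), dabigatran (dab) and both drugs (ami+dab), 1 library each. Atp6v0d2 takes 30.6% and 32.1% of subunit d in the libraries with amiodarone, against 9.90% and 11.6% in the others.

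Summed markers of macrophages and neutrophils were higher in both libraries with amiodarone than in both without it, while other lists differed in direction. For macrophages, 11 of 12 listed markers had a value, all at least 1 FPKM with vehicle, and their summed level was 114 FPKM after vehicle, 247 after amiodarone, 120.2 after dabigatran and 273 after both drugs. Of the 11 markers, Gpnmb had the highest ratio of amiodarone to vehicle, 11.2, followed by Fcgr1, 4.37, and Trem2, 3.80, while the lowest were those of Pparg, 1.07, and Csf1r, 1.05. The 7 neutrophil markers summed to 91.2, 596, 68.1 and 431 FPKM in that order. Of 5 osteoclast markers, Ctsk (9.74, 73.9, 10.6 and 51.6 FPKM) and Acp5 (13.4, 31.3, 14.8 and 37.6 FPKM) were high in the same libraries as Atp6v0d2, while Dcstamp, Ocstamp and Calcr, which are more particular to osteoclasts, were under 1 FPKM throughout. The 3 club cell markers, on the other side, summed to 130281, 77816, 104459 and 101832 FPKM, and the 4 B lymphocyte markers to 162, 55.4, 136 and 98.2 FPKM. The part of these cell types in the pump and membrane values was not tested. The tissue label was checked with markers of lung cells. Sftpc, the surfactant protein of alveolar type 2 cells, was between 19587 and 20385 FPKM in the 4 libraries. The type 2 markers together summed to between 25448 and 27485 FPKM, most of it Sftpc, and the type 1 markers to between 3139.6 and 3398 FPKM. Gene by gene, 5 of the 7 type 2 markers were higher with amiodarone than with vehicle (40.1% of detected genes), at a median ratio of 1.15. For the combination against dabigatran alone 6 of 7 were higher (46.9% of detected genes), at a median ratio of 1.19. In the order vehicle, amiodarone, dabigatran and both drugs, ciliated cell markers summed to 95.5, 76.9, 84.95 and 75.7 FPKM. Fibroblast markers summed to 342, 264, 384 and 288 FPKM, and T lymphocyte markers to 14.9, 14.3, 15.6 and 13.9 FPKM. Each of these sums was lower in both libraries with amiodarone than in both without it. Endothelium markers, at 658, 708, 761 and 611 FPKM, went opposite ways in the 2 amiodarone pairs. Those of ionocytes lay between 1.86 and 2.26 FPKM. Cardiac muscle markers were present in each library, at a sum of 904 FPKM with vehicle and 443 to 605 FPKM in the others, and red blood cell markers summed to 11387, 15746, 12780 and 6319 FPKM in the order vehicle, amiodarone, dabigatran and both drugs. Their part in the results was not tested.

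Other genes around the pump showed a mixed picture. Of 12 genes for pump assembly and regulation, 11 were detected, with a median ratio of amiodarone to vehicle of 1.04. Of these 2 were at least 25% higher and none was at least 20% lower, where 10.1% and 18.8% of all detected genes were. For the combination to dabigatran the median ratio of the 11 genes was 0.982, with 5 higher and 6 lower (46.9% of detected genes were higher). Dmxl2, a subunit of the RAVE-like complex that assembles the pump, had 1.89 FPKM after vehicle, 2.78 after amiodarone, 2.08 after dabigatran and 2.79 after both drugs, a ratio of 1.47 (1.28 to 1.69), and one of 1.34 for the combination to dabigatran. Ccdc115, needed for V0 assembly, was 25.2% higher with amiodarone, and Ncoa7 had a ratio of 1.22. At the other end, Rogdi had 0.846 (0.760 to 0.942) and Wdr7, another part of the RAVE-like complex, 0.940 (0.830 to 1.07). For the combination to dabigatran the ratios were 1.22 for Ccdc115, 1.09 for Ncoa7, 0.972 for Rogdi and 0.982 for Wdr7.

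Of 25 other lysosome membrane genes 24 were detected, with a median ratio of 1.09, 7 at least 25% higher (10.1% of detected genes) and none at least 20% lower (18.8%). Mcoln3, a calcium channel related to Mcoln1, had 1.06 FPKM after vehicle, 4.96 after amiodarone, 1.23 after dabigatran and 5.34 after both drugs, a ratio of 4.68 (3.5 to 6.35). Cd68, also in the macrophage list, had a ratio of 2.70, and the tetraspanin Cd63 had 188 FPKM after vehicle, 294 after amiodarone, 171 after dabigatran and 254 after both drugs, a ratio of 1.57. The lowest ratios were those of Slc46a3, 0.896, and Tmem9, 0.925. A list of 12 genes held the Ragulator and Rag complexes, which bring the growth kinase mTORC1 to the lysosome and bind Slc38a9 and the pump. It also held Flcn, Fnip1 and Fnip2, which belong to neither complex. All 12 genes were detected, with a median ratio of 1.17. With amiodarone against vehicle, 4 of them were at least 25% higher, among which Fnip2, Flcn and Fnip1, and 1 was at least 20% lower (10.1% and 18.8% of detected genes). Fnip2 had 4.51 FPKM after vehicle, 7.91 after amiodarone, 4.89 after dabigatran and 6.31 after both drugs, a ratio of 1.75 (1.58 to 1.95), its partner Flcn 1.48 and Fnip1 1.37. For the combination to dabigatran the ratios of Fnip2, Flcn and Fnip1 were 1.29, 1.26 and 1.01, and the interval of Fnip1 (0.911 to 1.12) included 1. Lamtor4, of the Ragulator, had 0.941 (0.817 to 1.09) for amiodarone to vehicle, but 1.29 (1.12 to 1.49) for the combination to dabigatran. Rragb, a close copy of Rraga with at most 82 reads in a library, had 1.72 FPKM after vehicle, 0.790 after amiodarone, 1.05 after dabigatran and 1.93 after both drugs, a ratio of 0.459 (0.295 to 0.702), but 1.84 for the combination to dabigatran. For comparison, 33 genes of lysosomal hydrolases and their activators had a median ratio of 1.27 for amiodarone to vehicle, with 18 at least 25% higher and none at least 20% lower, against the same shares of detected genes, and of 1.16 for the combination to dabigatran. These medians lie on both sides of the pump's 1.21 in the 2 pairs, and the differences between the lists have no test here.

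Dabigatran alone was compared with vehicle to see whether it changed these genes by itself. Of the 32 genes 14 were higher and 18 lower (49.4% of detected genes were higher), and the median change was -0.739%. None was at least 25% higher (4.41% of detected genes) or at least 20% lower (5.76%). The interval lay above 1 for 3 genes and below 1 for 6, against 15.0% and 13.6% of detected genes. The 3 above were Atp6v1a, at 1.11 (1.04 to 1.18), Lamp1, at 1.13 (1.11 to 1.16), and Ostm1, at 1.21 (1.08 to 1.35). The 6 below were Atp6v0a1, Atp6v0b, Atp6v1f, Atp6v1g1, Tmem192 and Mfsd8, with ratios from 0.809 for Mfsd8 to 0.926 for Atp6v0a1. All 6 genes of the V0 sector were lower, with a median change of -5.34%, where 6614 of 13195 detected genes were lower. Among the V0 genes Atp6v0b had the largest difference, at 0.864 (0.804 to 0.929). Only its interval and that of Atp6v0a1 lay below 1, and those of Tcirg1, Atp6v0c, Atp6v0d1 and Atp6v0e included 1. The membrane genes had a median change of 1.91%.

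The combination was compared with amiodarone alone to see whether dabigatran changed these genes in treated mice. Of the 16 pump genes 13 were lower and 3 higher, with a median change of -4.35%, and of the 16 membrane genes 8 were lower and 8 higher, with a median of 0.086%, where 58.1% of detected genes were higher and the median was 2.53%. None of the 32 was at least 25% higher or at least 20% lower (14.5% of detected genes were past either limit). After rescaling of the libraries by their median ratio, 25 of the 32 genes rather than 21 were lower, and the share of higher genes among all those past these limits was 51.1% rather than 62.0%. The interval lay above 1 for 2 genes and below 1 for 10, against 21.1% and 14.7% of detected genes. This comparison shares the amiodarone library with the first one. Red blood cell markers differed more between its libraries than the 32 genes did, at 6319 FPKM with both drugs and 15746 FPKM with amiodarone, and their part in the values was not tested.

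The largest differences between the combination and amiodarone were in the membrane. Lamp2 had a ratio of 0.855 (0.826 to 0.885) and Ostm1 one of 0.858 (0.775 to 0.949). Laptm5 was higher with the combination, at 1.15 (1.11 to 1.19), as was Mcoln1, at 1.11. Lamp1 and Laptm4a were lower beyond counting error too, at 0.977 and 0.948. Lamp1 and Ostm1 were thus lower here and higher with dabigatran alone against vehicle, each beyond counting error, and 8.38% of detected genes had such opposite directions. In the pump, the ratios below 1 beyond counting error were those of Atp6v1h, 0.890 (0.813 to 0.974), Atp6v1e1, 0.899, Tcirg1, 0.901, Atp6ap2, 0.908, Atp6v0a1, 0.924, and Atp6v1g1, 0.932. Atp6v0c, the most abundant pump gene, had 0.987 (0.954 to 1.02), and Atp6v0d2, outside the 32, had 1.1 (1.03 to 1.17). The summed pump level was 1426 FPKM with both drugs, 1470 FPKM with amiodarone, 1219 FPKM with vehicle and 1174 FPKM with dabigatran. Both sums with amiodarone stood above both sums without it.

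**Figure D4:**
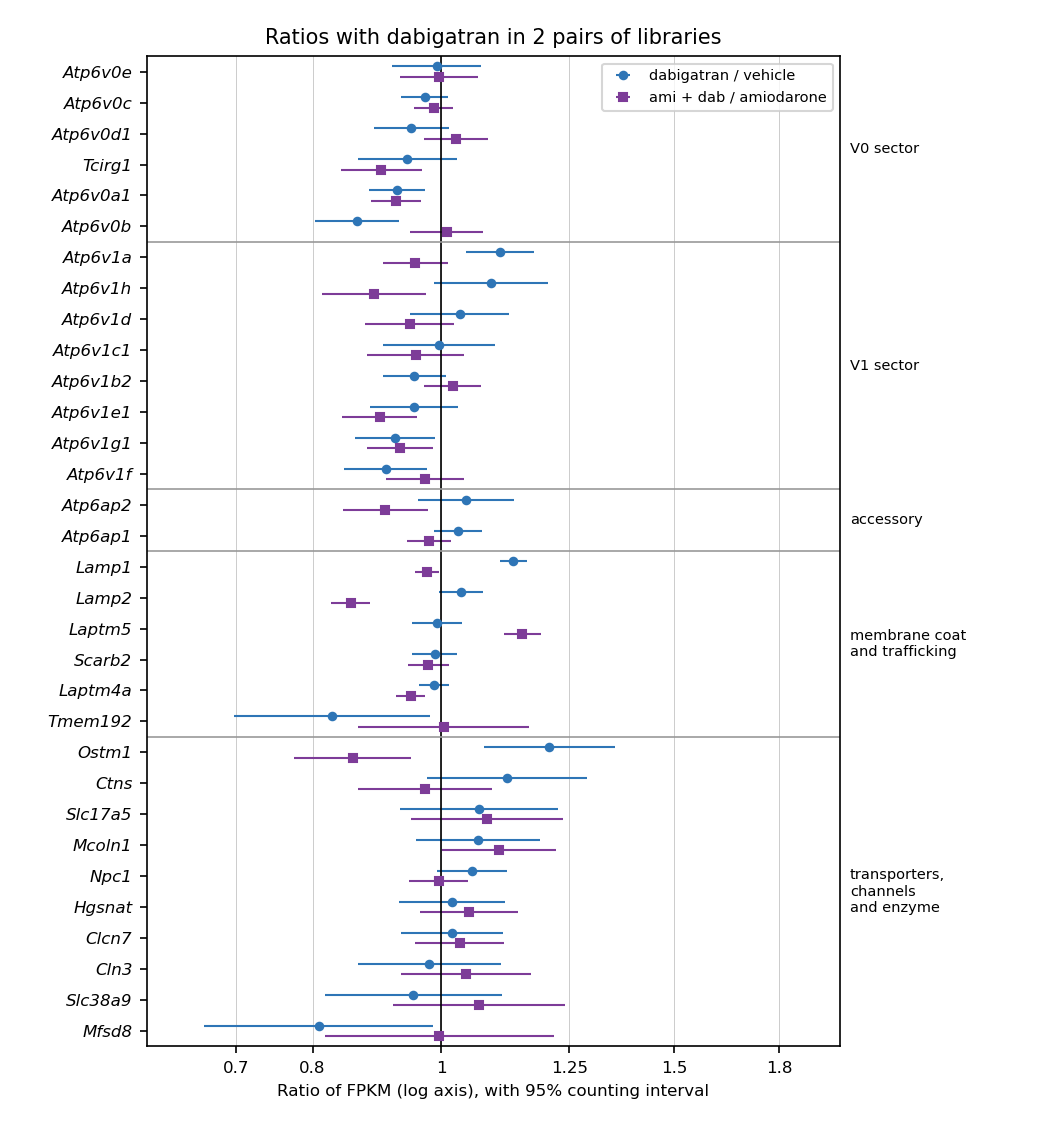
Ratio of FPKM on a log axis for dabigatran against vehicle (circles) and both drugs against amiodarone (squares), with 95% counting intervals as bars, for the 32 genes by role. The ratios run from 0.809 for Mfsd8 to 1.21 for Ostm1 in the first pair and from 0.855 for Lamp2 to 1.15 for Laptm5 in the second.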

How the data were processed

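Per the labels and the study's methods, poly(A) RNA from lung was sequenced by DNBseq. The authors aligned clean reads against GRCm38.p6 using HISAT (2.0.4) and against gene sequences using Bowtie2 (2.2.5), and RSEM (1.2.8) gave the expression values. For each of 4 libraries an estimated count of reads and a normalized value were deposited for 17780 genes. The deposited normalized values carry no named unit and were read as FPKM, since reads per unit of value differ between libraries by the ratio of their total reads. Another 8 columns, means over 2 libraries, were not used. Totals ran from 17498486 to 18903401 reads, and a member had between 191 and 18156 reads in a library. A count of 0 allows up to 3 reads, or 1.71e-05% of the reads of the vehicle library. Reads were whole numbers for 29 of the 32 genes and divided by estimation for Npc1, Cln3 and Mfsd8.

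The 32 genes and all other lists, and the genes named from them, were chosen with earlier results of these data known. The text names all 32 genes, the paralogs of pump subunits, and from each other list the 3 detected genes with the largest and the 2 with the smallest ratio of amiodarone to vehicle; most marker lists and the hydrolases are given by sums or medians instead. The osteoclast genes below 1 FPKM were named after their values were seen. Genes with at least 1 FPKM with vehicle counted as detected, after the methods. A gene was called at 25% higher or 20% lower on the plain ratio of FPKM, without a pseudocount. Intervals came from the reads of 2 libraries, rounded to whole numbers and rescaled to FPKM (Clopper-Pearson, scipy 1.17.1). The procedure was tested on simulated libraries that held counting error alone and 2-fold changes. That run says nothing of how smaller changes are called or of the spread between mice. Alternatives were pseudocounts of 1 and 0.1, other filters, scalings and call limits. Promoter sequences and gene positions came from RefSeq tables of GRCm38.p6. Python 3.11.15 was used.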

Additional observations from a re-analysis of the deposited data

Results flagged for a closer look

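The ratios of dabigatran to vehicle and of the combination to amiodarone lay beyond counting error in opposite directions for 2 of the 32 genes, and these differences were not tested, since each group holds 1 library. Among detected genes 8.38% had such opposite directions, so 2 of 32 is no more than the background. For Lamp1 the ratio was 1.13 without amiodarone and 0.977 with it, and the quotient of the 2 ratios was 1.16. For Ostm1 the ratio was 1.21 without amiodarone and 0.858 with it, a quotient of 1.41. By arithmetic each quotient equals that of the gene's 2 amiodarone ratios, so it repeats the difference between the amiodarone pairs given above.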

How the results depend on the processing

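No paired analysis was possible because each group holds 1 library, and for the same reason no replicate could be left out. Under both pseudocounts, the 3 other filters and the 2 other scalings, the median ratios of pump and membrane genes stayed within the medians of their counting limits, and their counts of calls within 1.5 times. With at least 5 FPKM in vehicle, which leaves out Mfsd8 and Slc38a9, the median log2 ratio of membrane genes for amiodarone against vehicle was 0.23 in place of 0.15, while that of the pump stayed at 0.28. Of 512 ratios of single genes under both pseudocounts and the 2 other scalings, 506 stayed within their counting interval, and the other 6, with 4 under rescaling and 2 under read counts, were of Lamp1, Lamp2 and Laptm4a, which have narrow intervals. Only the limit for a call moved the counts by more than 1.5 times. With amiodarone against vehicle, the number of pump genes called higher went from 6 to 0 at 1.5-fold and at 2-fold, and to 15 when every interval above 1 counted. Membrane genes called higher went from 6 to 1 at 1.5-fold and 0 at 2-fold, and those called lower from 0 to 1 by the interval. With the combination against dabigatran, pump genes called higher went from 6 to 0 at 1.5-fold and at 2-fold and to 14 by the interval, and membrane genes from 3 to 1, 0 and 11. With dabigatran against vehicle, where no gene was called, the interval gave 1 pump gene higher and 4 lower, and 2 membrane genes higher and 2 lower. With the combination against amiodarone, where again no gene was called, it gave 6 pump genes lower, and 2 membrane genes higher and 4 lower. Only the limit for a call differed between these counts. Mfsd8 and Tmem192 had the fewest reads with vehicle and the widest intervals.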
